A study of Mus musculus with 6 samples.

Results

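Heat shock factor 1 and the cytosolic heat shock proteins were followed in a mouse red cell precursor line after siRNA against Foxo3. The set comprised 10 genes, Hsf1, Hspa1a, Hspa1b, Hspa8, Hsp90aa1, Hsp90ab1, Hsph1, Dnajb1, Hspb1 and Bag3. Its members were all non-control array probes annotated with 1 of these gene names, which gave 12 of the 55681 probes on the array. Of the 10 genes, 9 had at least 1 probe, among 34797 gene names on the array, and 1, Hspa1b, had none under its own name. The filter on dim signal kept 10 of these probes, from 7 genes, among 26970 kept probes in all.

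Heat shock factor 1 is a transcription factor that is held inactive by chaperones and switches on chaperone genes when unfolded protein accumulates. Among the products of the genes it controls are the HSP70 proteins, which bind exposed hydrophobic stretches of unfolded clients, and the HSP90 proteins, which finish the folding of kinases and receptors. In maturing red cells HSP70 is known to protect the transcription factor GATA-1, and chaperones also serve cells that fill with globin.

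The cells were G1E-ER-GATA-1, an erythroid line without endogenous GATA-1 in which a fusion of GATA-1 with the estrogen receptor's hormone-binding part is switched on by estradiol. One group received Foxo3 siRNA and the other nontargeting siRNA, with 3 samples in each, and both received β-estradiol, so no sample shows the cells before GATA-1 activation. Electroporation took place at 0 h and 24 h, the hormone was added at 24 h and RNA was taken at 48 h, after 24 h of exposure. Each sample's Cy3-labelled RNA went alone onto 1 array of a single slide. Whether the replicates were separate cultures is not stated in the labels, and the p-values cover the spread among these 6 samples, which may be technical. Because a total RNA sample is a mixture of cells, fewer cells carrying a transcript and less transcript per cell cannot be told apart.

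The probe for the RefSeq transcript of Foxo3 fell by 2.42 (log2) with Foxo3 siRNA (SE 0.340, limma adjusted p = 0.00532), whereas a second Foxo3 probe differed by 0.25 (adjusted p = 0.258). Between 20343 and 37532 non-control spots per array were well above background, and no spot was saturated. Foxo3 siRNA replicate 3 stood apart, with a surrogate background value at 50.2% of its non-control spots, against 16.7% to 29.3% on the other 5 arrays. Of the 11 erythroid marker genes with a probe, 10 were well above background on all 6 arrays. Gata1 was among them, in a line without endogenous GATA-1. The marker sum, in multiples of each array's 75th percentile signal, was 3194 to 4119 on Foxo3 siRNA arrays, against 4419 to 4829 on nontargeting arrays. By gene, 2 of the 11 were called higher, Rhag at 1.40 and Tfrc at 0.60, and 0 lower (limma; 2 lower at an unadjusted p under 0.05), while the brightest, Hba-a1, was at −0.46 (adjusted p = 0.0669). Sums of 10 megakaryocyte markers were 114.8 to 144.7 on Foxo3 siRNA arrays and 174.3 to 181.1 on nontargeting arrays, with Ppbp above background on no array. Of 8 tested genes, Treml1, Itga2b and Gp1ba were called higher, at 2.50, 1.26 and 0.59, and the brighter Itgb3 lower, at −0.80. Sums of 10 macrophage and granulocyte markers were 237.1 to 303.4 on Foxo3 siRNA arrays and 304.7 to 398.2 on nontargeting arrays. Of these markers, Csf1r, Cd68, Elane, Csf3r and Itgam were above background on all 6 arrays, and Lyz2, Mpo and Ly6g on no array. None of the 6 tested genes was called (limma; 3 lower at an unadjusted p under 0.05). Sums of 9 lymphocyte markers overlapped, at 19.6 to 22.8 on Foxo3 siRNA arrays and 21.1 to 30.5 on nontargeting arrays. Of these markers, Cd3e, Cd4 and Nkg7 were above background on all 6 arrays, and Cd8a, Cd79b, Ms4a1 and Pax5 on no array. Sums of 10 fibroblast and endothelial markers were 17.4 to 21.7 on Foxo3 siRNA arrays and 27.0 to 36.9 on nontargeting arrays, with 6 of them, Col1a1, Pdgfrb, Dcn, Lum, Cdh5 and Tek, above background on no array and Kdr called lower at −0.68. Counts of called markers are to be read against all features read by their brightest kept probe. Of those, 13.0% were called higher and 13.2% lower. All the marker sums rest on 75th percentile scaling, and the brightest genes weigh most in them. After median scaling Hba-a1 was at −0.14, Csf3r at −0.09 and Itgb3 at −0.48. After scaling to spike-in controls they were at −0.07, −0.02 and −0.42. Whether the sums separate under those scalings was not tested. The part of these shifts in the results below was not tested.

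Foxo3 siRNA samples had higher signal for both cytosolic HSP90 genes and for Hsph1, at folds of 1.49 to 1.67. Hsf1 itself, Dnajb1, Bag3 and the 3 probes of Hspa8 did not pass the test. Hspa1a and Hspb1 were not well above background on any array. In counts, 4 of the 10 kept probes were called higher (limma, Benjamini-Hochberg adjusted p under 0.05), against 12.2% of all kept probes, and 0 were called lower, against 13.4%, so that 25.6% of all kept probes were called either way. The 4 probes came from 3 of the 7 kept genes, since Hsph1 had 2 of them. Of all features read by their brightest kept probe, 13.0% were called higher. At an unadjusted p under 0.05, 5 probes were higher and 0 lower. The share of all kept probes called higher ranged from 7.04% among the dimmest to 18.1% in the range above them. Leaving out 1 array gave 2 member probes higher without Foxo3 siRNA replicate 1 or 3, 1 without Foxo3 siRNA replicate 2 or nontargeting replicate 1 or 2, and 4 without nontargeting replicate 3.

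The median log2 difference of the 10 probes, Foxo3 siRNA minus nontargeting, was 0.30, against −0.16 over all kept probes. That −0.16 leaned on dim probes, with a median of −0.32 in the dimmest 50%. It was 0.01 from 50% to 90%, −0.03 from 90% to 99% and −0.25 in the brightest 1%. All 10 member probes lay above the dimmest 50%. Over the 17840 probes well above background on all 6 arrays the median was −0.004. The groups did not overlap, with Foxo3 siRNA above, for 6 of the 10 probes, against 21.4% of all kept probes, and with Foxo3 siRNA below for 0 of them, against 28.0%. Values below are log2 signals minus the array's 75th percentile, given for replicates 1, 2 and 3 of each group, and differences are on the same log2 scale. They describe each probe against itself across arrays, since signals of different probes cannot be set against each other.

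**Figure D1:**
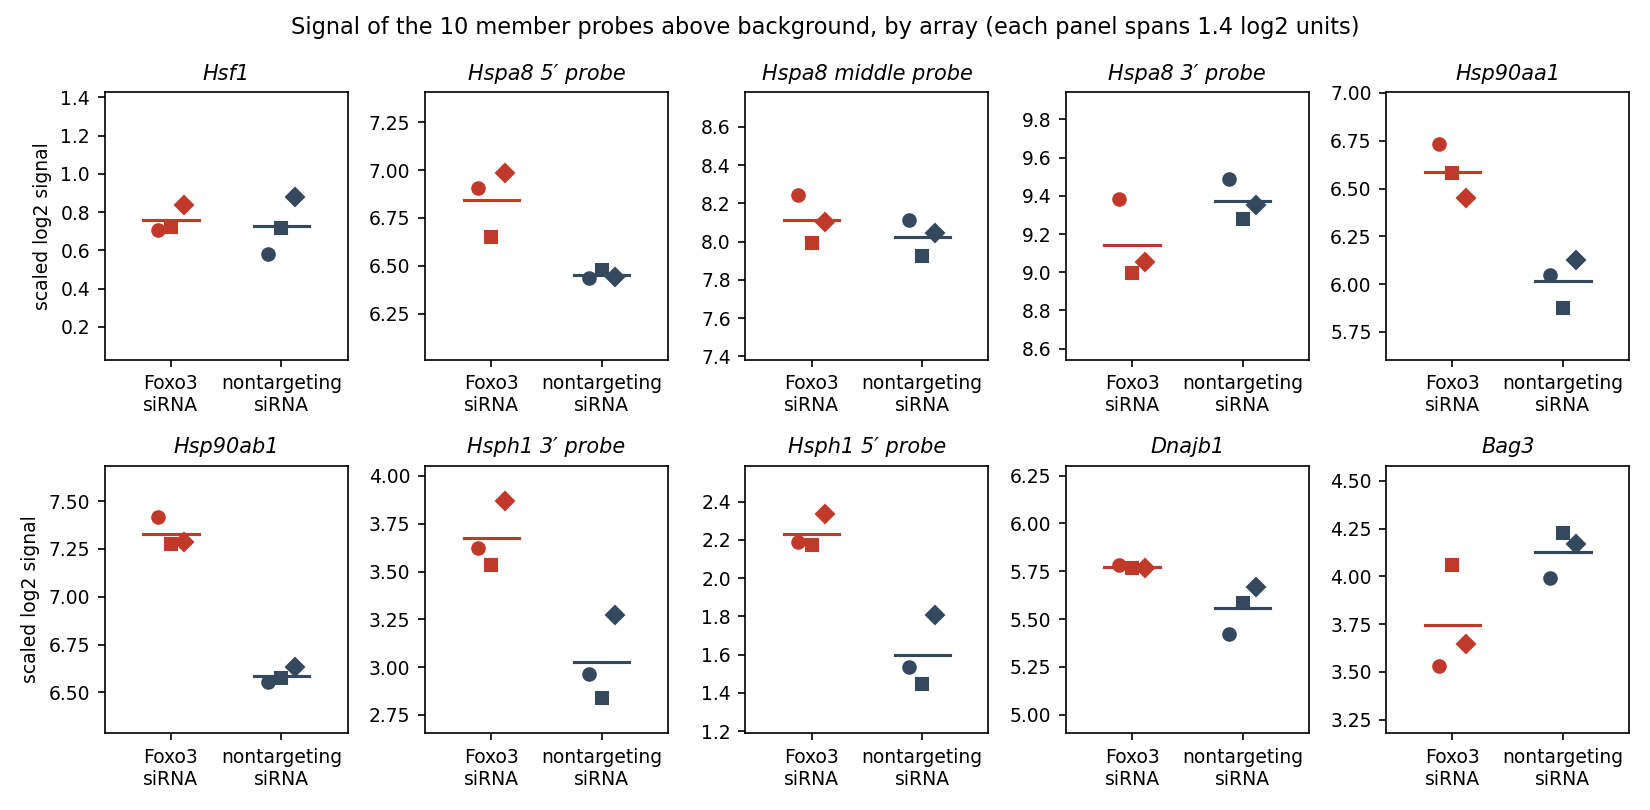
Scaled log2 signal (y axis, log2 signal minus the array's 75th percentile) of the 10 member probes kept by the filter, with Foxo3 siRNA arrays at left and nontargeting siRNA arrays at right in each panel. Circles, squares and diamonds are replicates 1, 2 and 3 and bars are means; the groups separate for Hsp90aa1, Hsp90ab1, both Hsph1 probes, Dnajb1 and the 5′ probe of Hspa8.

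Hsf1, the regulator, was measured by probe A_55_P2035593 at chr15:76331320-76331379 on the plus strand of mouse build mm9. Its levels were 0.71, 0.72 and 0.84 with Foxo3 siRNA, against 0.58, 0.72 and 0.88 with nontargeting siRNA. The groups overlapped, with the lowest and the highest values both on nontargeting arrays. The difference was 0.03 (SE 0.121, 95% interval −0.26 to 0.32, adjusted p = 0.850). The transcript level says nothing of the protein's activity, which is set by its release from chaperones, by trimer formation and by phosphorylation.

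Over the 6 arrays the mean-centred signals nearest to those of Hsf1, among 11708 genes with a symbol, were those of Ubl4a, Vamp4 and Mrpl52. Their root mean square distances were 0.019, 0.028 and 0.028, given as a description of these arrays.

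Hsp90ab1, the constitutive cytosolic HSP90, had the smallest adjusted p of the set. Probe A_55_P2048434 (mm9 chr17:45704788-45704847, minus strand) read 7.42, 7.27 and 7.29 with Foxo3 siRNA, against 6.55, 6.58 and 6.63 with nontargeting siRNA. All Foxo3 siRNA arrays lay above all nontargeting arrays. The difference was 0.74 (SE 0.104, adjusted p = 0.00539), a fold of 1.67, and it was called in 12 of 15 other processings.

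Within slide row 1, which held Foxo3 siRNA replicate 1 and all 3 nontargeting arrays, the Hsp90ab1 difference was 0.83 (adjusted p = 0.0616). With slide row as a block it was the same 0.83 (adjusted p = 0.0333), since only row 1 holds both groups. The difference in both settings rests on 1 Foxo3 siRNA array, so they are not separate checks. Row 2 held Foxo3 siRNA replicates 2 and 3 only, so it gives no comparison of its own.

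Hsp90aa1, the stress-inducible cytosolic HSP90, moved in the same direction. Probe A_55_P2057946 (mm9 chr12:111929248-111929307, minus strand) read 6.73, 6.58 and 6.45 with Foxo3 siRNA, against 6.05, 5.87 and 6.12 with nontargeting siRNA. The groups did not overlap. The difference was 0.57 (SE 0.129, adjusted p = 0.0236), a fold of 1.49. This probe's annotation lists a second RefSeq transcript beside that of Hsp90aa1, so signal from another transcript cannot be told apart. It was not called without Foxo3 siRNA replicate 1 (adjusted p = 0.0515) or 2 (0.0677), or without nontargeting replicate 1 (0.0614) or 2 (0.0844). The value was 0.72 within slide row 1 (adjusted p = 0.102) and 0.72 with the row as a block (adjusted p = 0.0695).

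Subtracting the Hsp90aa1 probe from the Hsp90ab1 probe on each array removes any scaling of that array. This gave 0.68, 0.69 and 0.84 on Foxo3 siRNA arrays, against 0.51, 0.70 and 0.51 on nontargeting arrays. The groups overlapped, and the difference of 0.17 had an exact two-sided permutation p of 0.3. Comparing 3 arrays with 3 cannot give a p below 0.1.

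Hsph1 encodes HSP110 (also called HSP105), a large relative of HSP70 that acts as its nucleotide exchange factor and helps to dissolve aggregates. It had a pair of kept probes on the minus strand of mm9 chromosome 5, a 3′ probe, A_55_P2176963, at chr5:150419744-150419803 and a 5′ probe, A_55_P2003513, at chr5:150420110-150420169. The 60-base sequence of the 5′ probe is printed because both oligos gave differences of like size from separate stretches of the transcript.
Hsph1 5′ probe: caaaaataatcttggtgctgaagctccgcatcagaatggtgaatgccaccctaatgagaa

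The 3′ probe of Hsph1 read 3.63, 3.53 and 3.87 with Foxo3 siRNA, against 2.96, 2.84 and 3.27 with nontargeting siRNA. The 5′ probe read 2.19, 2.17 and 2.33 with Foxo3 siRNA, against 1.54, 1.44 and 1.81 with nontargeting siRNA. At both probes every Foxo3 siRNA array was above every nontargeting array, and replicate 3 was the highest within each group. The differences were 0.65 (SE 0.160, adjusted p = 0.0300, fold 1.57) for the 3′ probe and 0.64 (SE 0.134, adjusted p = 0.0193, fold 1.55) for the 5′ probe. They are readings of 1 transcript and not separate evidence.

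On each array the Hsph1 3′ probe exceeded the 5′ probe by 1.44, 1.36 and 1.54 (log2) with Foxo3 siRNA, against 1.43, 1.39 and 1.46 with nontargeting siRNA. That offset differed by 0.02 between groups (exact permutation p = 0.8). Without Foxo3 siRNA replicate 3, the array with the raised floor, the 3′ and 5′ differences were 0.55 (adjusted p = 0.0773) and 0.58 (adjusted p = 0.0556). Neither probe was called without Foxo3 siRNA replicate 2 (adjusted p = 0.0564 and 0.0520), nontargeting replicate 1 (0.0892 and 0.0617) or nontargeting replicate 2 (0.0955 and 0.0712), and the 3′ probe was not called without Foxo3 siRNA replicate 1 (0.0566). Within slide row 1 they were 0.60 (adjusted p = 0.195) and 0.59 (adjusted p = 0.174).

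Hspa8 encodes HSC70, the constitutive cytosolic HSP70, which also uncoats clathrin vesicles and delivers proteins to lysosomes. Its 3 probes run along the transcript on the plus strand of mm9 chromosome 9, the 5′ probe A_52_P12877 at chr9:40611142-40611201, the middle probe A_55_P2069721 at chr9:40612755-40613050 and the 3′ probe A_55_P2080603 at chr9:40613223-40613282. The middle probe's 60 bases span 296 genomic bases, so it crosses an exon junction. The 3′ probe holds an AATAAA, the letters of the common polyadenylation signal. Sequences of the 5′ and middle oligos are shown because the 3 probes gave different differences.
Hspa8 5′ probe: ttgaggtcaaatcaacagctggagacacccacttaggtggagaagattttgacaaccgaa
Hspa8 middle probe: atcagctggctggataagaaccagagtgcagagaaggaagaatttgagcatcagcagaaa

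At the 5′ probe Hspa8 read 6.90, 6.65 and 6.98 with Foxo3 siRNA, against 6.43, 6.48 and 6.44 with nontargeting siRNA. The groups did not overlap here, yet the difference of 0.40 (SE 0.124) missed the threshold at an adjusted p of 0.0595. It was called in 3 of 15 other processings, with quantile normalization (adjusted p = 0.0392), normexp background correction (adjusted p = 0.0179) and the filter on all 6 arrays (adjusted p = 0.0278).

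The middle Hspa8 probe read 8.24, 7.99 and 8.10 with Foxo3 siRNA, against 8.11, 7.92 and 8.04 with nontargeting siRNA. Its difference was 0.09 (SE 0.120, adjusted p = 0.593), and the groups overlapped. The 3′ probe read 9.38, 9.0 and 9.06 with Foxo3 siRNA, against 9.49, 9.28 and 9.35 with nontargeting siRNA. Here the groups overlapped through Foxo3 siRNA replicate 1, and the difference was −0.23 (SE 0.143, adjusted p = 0.249). Its sign was positive under median scaling (0.082), under scaling to spike-in controls (0.15) and within slide row 1 (0.0088).

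The 3 Hspa8 differences decreased in order from the 5′ to the 3′ probe, and no constant taken from an array alters that order. Their signs can change with such a constant, as that of the 3′ probe did under median and spike-in scaling. The 5′ probe minus the 3′ probe was −2.48, −2.34 and −2.07 (log2) on Foxo3 siRNA arrays, against −3.05, −2.80 and −2.91 on nontargeting arrays. The groups did not overlap, and the shift was 0.62 (exact permutation p = 0.1, the smallest that 3 against 3 allows). Shifts of 0.31 for the 5′ minus the middle probe and 0.32 for the middle minus the 3′ probe also came without overlap and with the same p. Over the 8 probe pairs computed, which were chosen after the values were seen, the Benjamini-Hochberg value of these comparisons was 0.133. The 3 probes are therefore kept apart here, and why they differ was not tested.

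**Figure D2:**
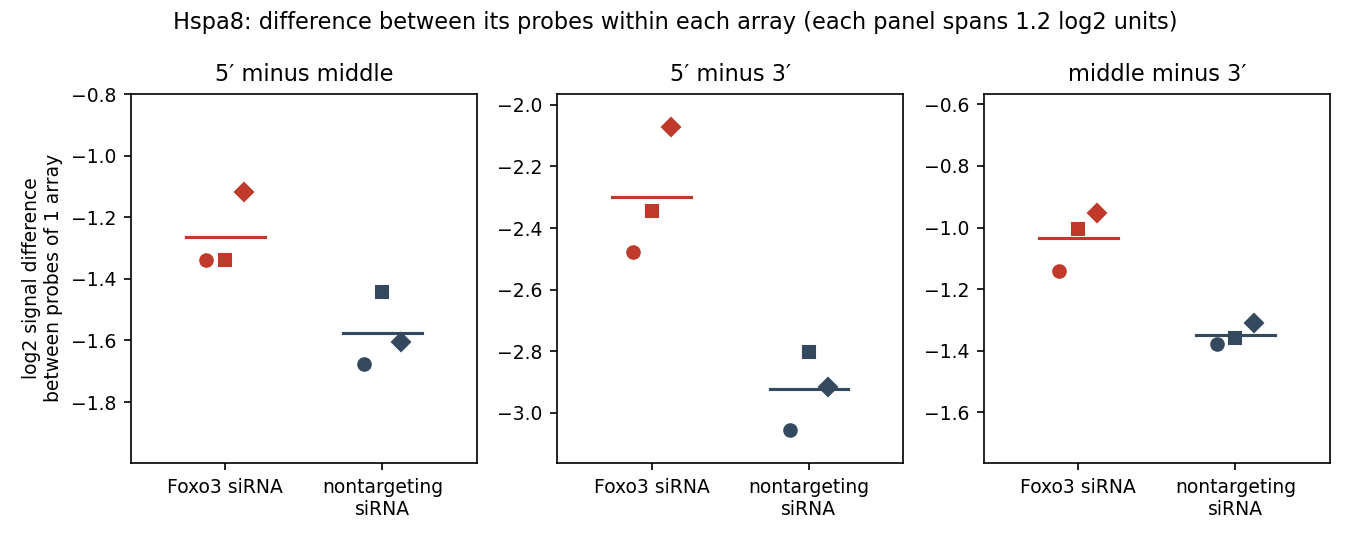
Difference in log2 signal between pairs of Hspa8 probes on the same array (y axis), with Foxo3 siRNA arrays at left and nontargeting siRNA arrays at right. Symbols are replicates 1 (circle), 2 (square) and 3 (diamond) and bars are means; in each pair the Foxo3 siRNA arrays lie above the nontargeting arrays, by 0.31, 0.62 and 0.32 on average.

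The brightest Hspa8 probe, the 3′ one, lay nearest over the 6 arrays to Sod1, Def6 and Actg1, at root mean square distances of 0.029, 0.035 and 0.039 among the same 11708 genes. Those genes differed by −0.26, −0.23 and −0.25 between the groups. Over the brightest 270 kept probes, of which the 3′ Hspa8 probe is 1, the median difference was −0.25, with quartiles of −0.45 and −0.06.

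Dnajb1 encodes HSP40, the J-domain partner that hands unfolded clients to HSP70 and stimulates its ATP hydrolysis. Probe A_51_P153486 (mm9 chr8:86135660-86135719, plus strand) read 5.78, 5.77 and 5.77 with Foxo3 siRNA, against 5.42, 5.58 and 5.67 with nontargeting siRNA. Foxo3 siRNA arrays were nearly equal and all above the nontargeting arrays, which spread more widely. The difference of 0.21 (SE 0.112, 95% interval −0.06 to 0.48, adjusted p = 0.185) did not pass.

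Bag3, an HSP70 exchange factor that steers damaged clients to autophagy, had the lowest difference of the set. Probe A_51_P371174 (mm9 chr7:135690281-135690340, plus strand) read 3.53, 4.06 and 3.65 with Foxo3 siRNA, against 3.99, 4.23 and 4.17 with nontargeting siRNA. Foxo3 siRNA replicate 2 fell inside the nontargeting range. The difference was −0.38 (SE 0.167, 95% interval −0.78 to 0.02, adjusted p = 0.129), and it was −0.07 under median scaling and −0.60 within slide row 1.

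The difference between members on 1 array does not depend on that array's scaling. Besides Hsp90ab1 minus Hsp90aa1, which overlapped (exact permutation p = 0.3), 3 of the 8 pairs set Hsp90ab1 or Bag3 beside another member. All 8 were chosen after the values were seen. Hsp90ab1 minus Dnajb1 was 1.63, 1.51 and 1.52 with Foxo3 siRNA, against 1.13, 0.99 and 0.96 with nontargeting siRNA, a shift of 0.53. Dnajb1 minus Bag3 was 2.25, 1.71 and 2.12 with Foxo3 siRNA, against 1.43, 1.36 and 1.5 with nontargeting siRNA, a shift of 0.60. Hsp90ab1 minus Hsf1 was 6.71, 6.55 and 6.45 with Foxo3 siRNA, against 5.97, 5.86 and 5.76 with nontargeting siRNA, a shift of 0.71. The groups did not overlap in any of the 3, which restates the differences of the single probes. Each had an exact permutation p of 0.1, the smallest possible, and a Benjamini-Hochberg value of 0.133, so none passed.

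Hspa1a encodes the stress-inducible HSP70 and was represented by probe A_55_P2068459 (mm9 chr17:35107117-35107176, minus strand). The array annotation lists RefSeq transcripts of both Hspa1a and its near-identical neighbour Hspa1b for this oligo, so the inducible pair shares 1 probe. It is shown because the reading for both genes rests on it.
Hspa1a and Hspa1b shared probe: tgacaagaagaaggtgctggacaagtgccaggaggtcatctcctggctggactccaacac

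Its processed intensities were 4.14, 17.1 and 26.4 with Foxo3 siRNA, against 17.7, 4.51 and 4.43 with nontargeting siRNA. None was well above background, so no fold is given. The lowest non-control signal on Foxo3 siRNA replicate 3 was 24.1, against 3.48 to 4.29 on the other arrays, which places the value of 26.4 near that array's floor. Low signal at this oligo shows only that these arrays did not detect the inducible HSP70 transcripts.

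Hspb1 encodes HSP25, the mouse counterpart of human HSP27, a small heat shock protein that holds unfolded proteins without ATP. Probe A_55_P2039284 (mm9 chr5:136365366-136365425, plus strand) gave intensities of 3.97, 3.73 and 25.3 with Foxo3 siRNA, against 4.49, 4.92 and 4.24 with nontargeting siRNA. It was not well above background on any array, and the single higher value was again at the floor of Foxo3 siRNA replicate 3.

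The authors' deposited table gives its own log2 fold change and adjusted p per spot, and it calls 1349 of 59305 non-control spots at an adjusted p under 0.05, which is 2.27%. In the authors' deposited table none of the 12 member spots passed. The authors' deposited table lists Hsp90ab1 at 0.79 (adjusted p = 0.0559), Hsp90aa1 at 0.66 (adjusted p = 0.119) and the Hsph1 3′ and 5′ probes at 0.73 (adjusted p = 0.125) and 0.58 (adjusted p = 0.167). For the 5′, middle and 3′ probes of Hspa8 the authors' deposited table has 0.48, 0.09 and −0.03. Dnajb1 is at 0.23 and Bag3 at −0.35 in the authors' deposited table. Directions were the same as here for 9 of the 10 kept probes; the exception is Hsf1, at −0.0042 in the authors' deposited table.

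**Figure D3:**
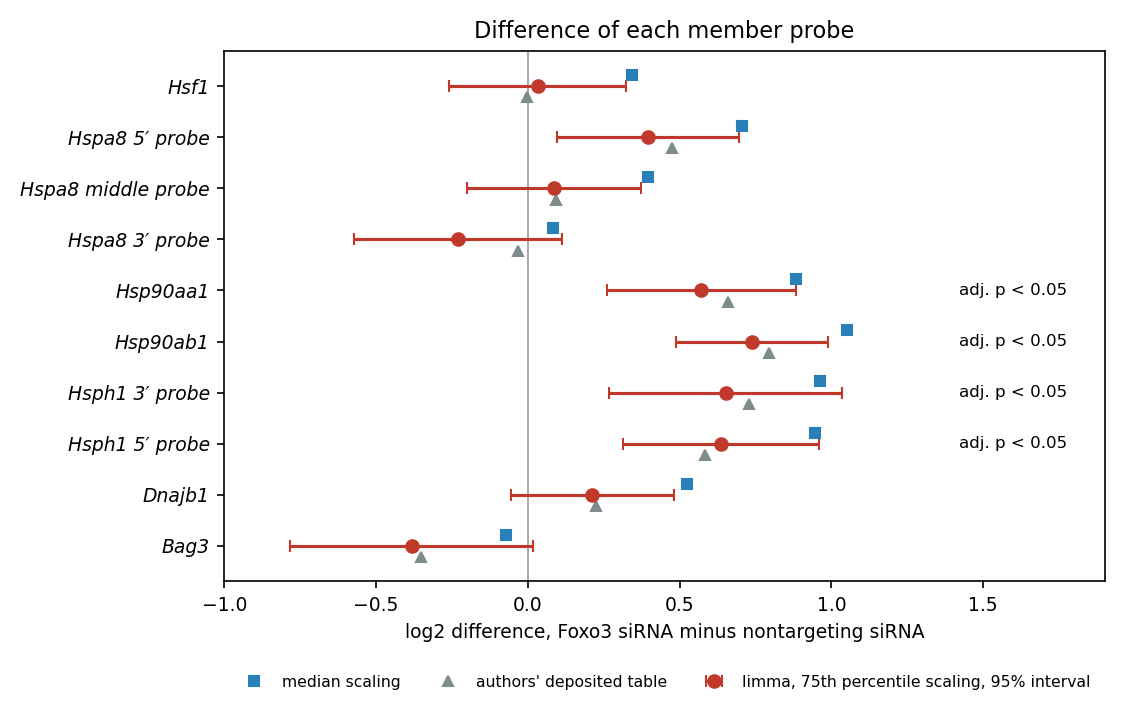
Log2 difference, Foxo3 siRNA minus nontargeting siRNA (x axis), of the 10 kept member probes. Red circles with 95% intervals are limma on 75th percentile scaling, blue squares the same after median scaling and grey triangles the authors' deposited table; the probes of Hsp90aa1, Hsp90ab1 and Hsph1 are marked as called, and Hspa8 ranges from −0.23 to 0.40 over its 3 probes.

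Scaling sets the zero of these differences. With 75th percentile scaling the median of all kept probes was −0.16, with median scaling 0.15 and with scaling to spike-in controls, chosen after seeing the data, 0.22. Each takes 1 constant from an array, so all differences move together and a probe's distance from that median is fixed in advance. That Hsp90ab1, Hsp90aa1 and Hsph1 lay above the median under each is therefore no separate check. They were at 1.05, 0.88 and 0.95 to 0.96 after median scaling. After spike-in scaling they were at 1.12, 0.95 and 1.02 to 1.03. Spike-in scaling called 0 member probes (limma), while 4 were higher at an unadjusted p under 0.05. Hsf1 was at 0.34 after median scaling and 0.41 after spike-in scaling, without passing in either.

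**Figure D4:**
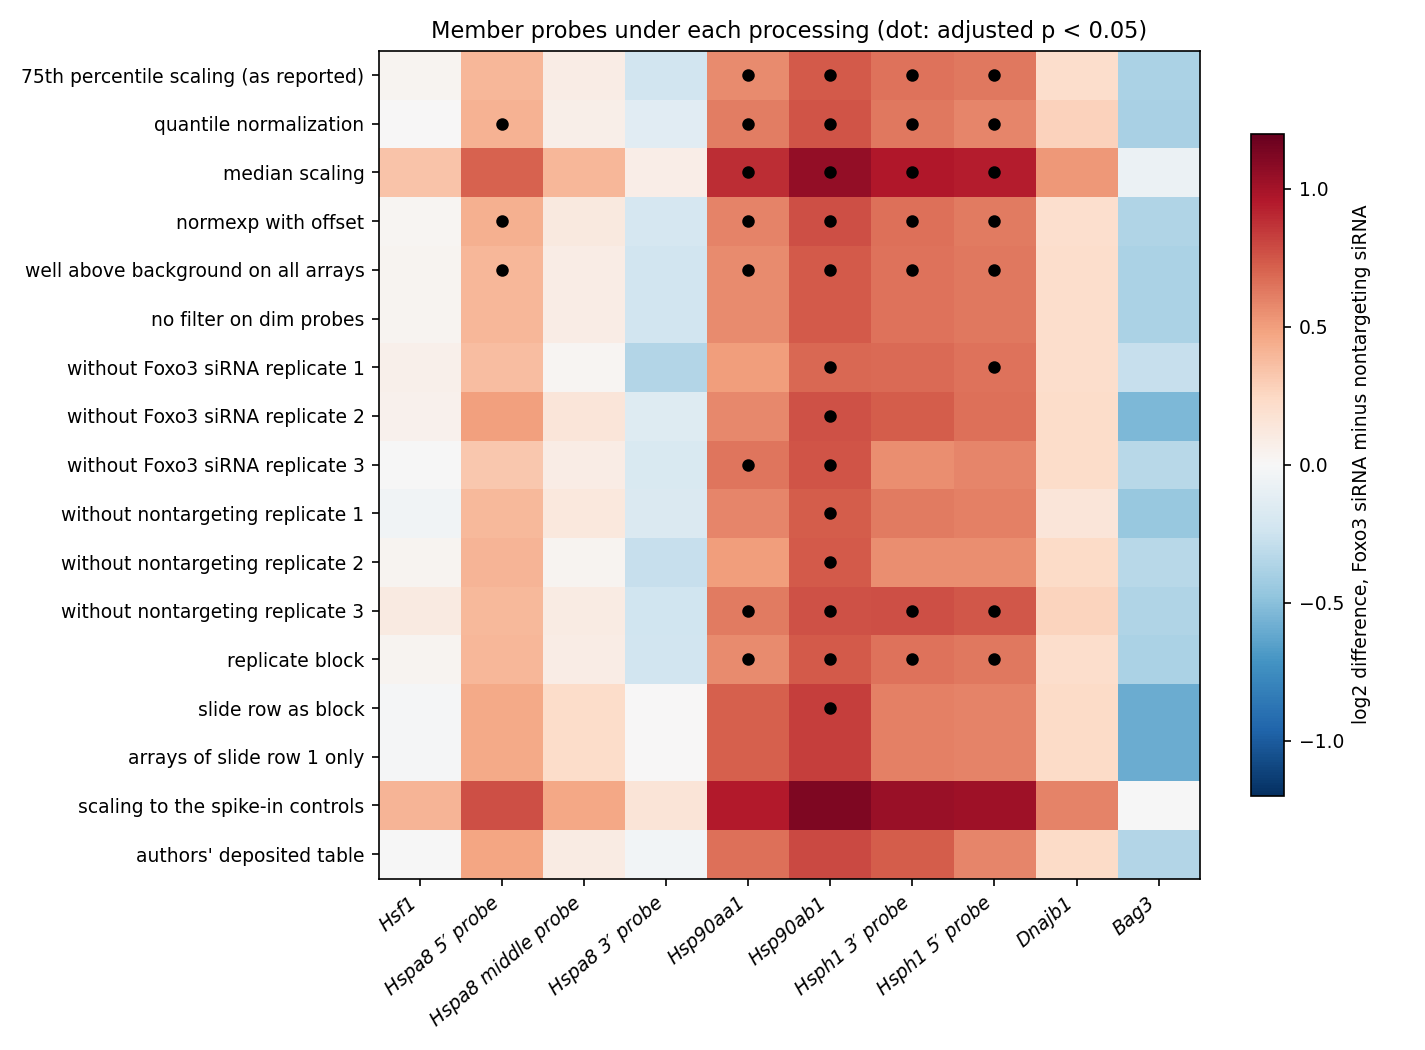
Log2 difference, Foxo3 siRNA minus nontargeting siRNA (colour), of the 10 kept member probes (columns) under each processing and in the authors' deposited table (rows); black dots mark an adjusted p under 0.05. Hsp90ab1 carries a dot in 12 of the 15 alternatives and no probe carries one with no filter on dim probes, within slide row 1, after spike-in scaling or in the authors' table.

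RefSeq promoters, 250 bases before to 50 bases after the start on build GRCm38.p6, were at hand for 6 of the 10 members in 8 entries. Heat shock factor 1 binds inverted repeats of the letters GAA. The 13-base form GAANNTTCNNGAA or TTCNNGAANNTTC, searched on both strands in the 250 bases upstream, occurred in 0 of the member entries and in 0.47% of 32851 promoters. The shorter 8-base form GAANNTTC or TTCNNGAA, which is contained in the longer one, occurred in the entries of Hspb1, Hsph1, Hspa1a and Hspa1b and in 12.84% of all promoters. No match was found in the entries of Dnajb1 and Bag3. Hsf1, Hspa8, Hsp90aa1 and Hsp90ab1 had no entry and were not searched, so Hsph1 was the only called gene searched. A match is a run of letters and not a measured site.

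The stretches around these matches are shown with the 8-base form in capitals, to set Hsph1, which rose, beside Hspb1 and the inducible HSP70 pair, which were not detected. They lie at chr5:135887772-135887851 (plus strand) for Hspb1, chr5:149636320-149636399 (minus strand) for Hsph1, chr17:34972211-34972290 (minus strand) for Hspa1a and chr17:34959293-34959372 (minus strand) for Hspa1b, all on GRCm38.p6. Hspa1a and Hspa1b share every letter of the stretch shown and 247 of the 250 upstream bases.
Hspb1: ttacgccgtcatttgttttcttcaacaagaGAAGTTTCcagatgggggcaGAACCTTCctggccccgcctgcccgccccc
Hsph1: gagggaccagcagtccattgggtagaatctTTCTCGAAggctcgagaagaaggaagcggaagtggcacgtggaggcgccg
Hspa1a and Hspa1b: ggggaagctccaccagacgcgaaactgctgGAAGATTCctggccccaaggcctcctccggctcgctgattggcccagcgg

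The matches of Hspb1 began 117 and 97 bases before the start, that of Hspa1a and Hspa1b 104 bases before and that of Hsph1 54 bases before for the entry shown. The letters were present both at Hsph1, where signal rose, and at genes where none was detected. This describes these promoters and tests nothing about the factor.

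Genes that work with these chaperones were read from 12 lists holding 171 genes, of which 145 were tested by their brightest kept probe. They were 37 higher and 13 lower, which is 25.5% and 8.97%, against 13.0% and 13.2% of all 19194 features read by their brightest probe. The median difference was 0.17, against −0.155 over all features read by their brightest probe. These genes were mostly bright, with 138 of the 145 well above background on all arrays. Of the dimmest 50% of kept probes only 7.04% were called higher. With the filter on all arrays, 44 of 138 related genes were higher and 19 lower. Of all 17840 probes under that filter, 3986 were higher and 3396 lower. How much of the lists' excess goes with signal level was not tested. Probes of 1 gene can disagree: among 39 tested genes with more than 1 kept probe, Dnajb5 and Dnajc5 had probes called in both directions. Within slide row 1 alone the counts were 5 higher and 2 lower, with the row as a block 7 and 2, and without Foxo3 siRNA replicate 3 they were 22 and 7. Under median scaling 44 were higher and 3 lower, when 4026 and 1190 of all 26970 kept probes were. Some list medians then turned sign: other Hsf1 targets were at 0.31, proteasome and ubiquitin genes at 0.077 and red cell clients at 0.23. With 75th percentile scaling these were −0.005, −0.23 and −0.09. Counts of single lists below are to be read against the same 13.0% and 13.2% of all features. Counts under another setting move with the calls over all probes in that setting.

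Among heat shock factors and their regulators 0 of 7 tested genes were called higher (limma; 1 at an unadjusted p under 0.05) and 1 lower, with a median of 0.01. That gene was Sirt1, a deacetylase known to prolong DNA binding by Hsf1, which fell by 0.77 on the log2 scale (adjusted p = 0.0138) and was called in 9 of 15 alternatives, but not without nontargeting replicate 2. Hsf2, a second heat shock factor, was at 0.30 (adjusted p = 0.333), Hsf4 at 0.42 (adjusted p = 0.0762) and Hsbp1, which binds heat shock factor trimers, at −0.18 (adjusted p = 0.312). Of 16 other target genes of Hsf1, 2 were higher and 2 lower, with a median of −0.005. That is 12.5% each way, against 13.0% and 13.2% of all features. With 1 array left out, 2 to 3 were higher and 0 to 1 lower. Jmjd6, a hydroxylase, rose by 1.06 (adjusted p = 0.00842), and Ubb, a ubiquitin gene, fell by 0.37 (adjusted p = 0.0454) but was at 0.015 after spike-in scaling.

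The machinery around HSP90 counted 7 of 24 genes higher and 2 lower, with a median of 0.27. The count was 5 higher without Foxo3 siRNA replicate 1, 3 to 4 without any other array and 1 with slide row as a block, with 0 to 1 lower in each. Trap1, the mitochondrial HSP90, rose by 1.36 (adjusted p = 0.00200) and Hsp90b1, the endoplasmic reticulum HSP90, by 0.70 (adjusted p = 0.0105). Stip1, the adaptor known as HOP that links HSP70 to HSP90, rose by 0.76 (adjusted p = 0.0128). Unc45a, a myosin chaperone, fell by 0.58 (adjusted p = 0.0129), and Ahsa1, an activator of the HSP90 ATPase, fell by 0.39 (adjusted p = 0.0387) but was at −0.01 after spike-in scaling.

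Around HSP70, 2 of 14 exchange factors and cochaperones were higher and 1 lower, with a median of 0.18. That is 14.3% and 7.14%, against 13.0% and 13.2% of all features. Leaving out 1 array gave 1 to 2 higher and 0 lower. Bag2, an inhibitor of the ubiquitin ligase CHIP, rose by 0.65 (adjusted p = 0.0159), whereas Bag1 fell by 0.35 (adjusted p = 0.0472) and was at 0.026 after spike-in scaling. Of 9 other HSP70 and HSP110 genes 3 were higher and 0 lower (limma; 1 lower at an unadjusted p under 0.05), with a median of 0.20, led by Hspa14 at 0.75 (adjusted p = 0.00734). That count was 1 without Foxo3 siRNA replicate 2, Foxo3 siRNA replicate 3 or nontargeting replicate 2.

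Of 36 J-domain genes 8 were higher and 4 lower, with a median of 0.10. After median scaling 11 were higher and 0 lower, with a median of 0.41, and with slide row as a block 0 were called in either direction. The counts were 4 higher and 1 lower without Foxo3 siRNA replicate 2 or nontargeting replicate 2, 7 and 1 without nontargeting replicate 1 or 3, 7 and 2 without Foxo3 siRNA replicate 3 and 7 and 3 without Foxo3 siRNA replicate 1. Dnajb2 rose by 0.75 (adjusted p = 0.00935) and Dnajb6, which suppresses aggregation, fell by 0.99 (adjusted p = 0.00910). Dnajc19 rose by 0.69 (adjusted p = 0.00724), but its other kept probe was at −0.21 (adjusted p = 0.296).

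The cytosolic chaperonin, a ring that folds actin and tubulin, and its helper prefoldin had 7 of 15 genes higher and 0 lower (limma; 1 lower at an unadjusted p under 0.05). This list had the highest median of the 12, at 0.44. Tcp1 rose by 0.93 (adjusted p = 0.00260), Cct4 by 0.60 (adjusted p = 0.0115), Cct2 by 0.51 (adjusted p = 0.0206) and Cct5 by 0.47 (adjusted p = 0.0248). Leaving out 1 array gave 2 to 6 of 15 higher (3 without Foxo3 siRNA replicate 3). It gave 1 lower without Foxo3 siRNA replicate 1 and 0 lower without any other array. Slide row as a block gave 1 of 15 higher and 0 lower. All 7 called genes were chaperonin subunits.

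In the endoplasmic reticulum list 5 of 18 were higher and 2 lower, with P4hb, a disulfide isomerase, up by 1.07 (adjusted p = 0.00276) and Herpud1, which serves degradation of misfolded proteins, lower at −1.24 (adjusted p = 0.00684). Leaving out 1 array gave 3 to 4 higher and 1 to 2 lower, and slide row as a block 1 and 0. The mitochondrial list had 3 of 13 higher and 1 lower. In it Lonp1, a matrix protease, rose by 0.64 (adjusted p = 0.0115) and Hscb, the J-domain protein of iron-sulfur cluster transfer, was lower at −1.44 (adjusted p = 0.00394). Of the proteasome and ubiquitin stress genes 1 of 13 was higher and 3 lower, with a median of −0.23 and with Sqstm1, the autophagy receptor p62, lower at −1.48 (adjusted p = 0.00138). In that list 0 were higher and 1 to 2 lower with 1 array left out.

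Small heat shock proteins outside the set had 2 of 5 higher and 0 lower (limma; 2 lower at an unadjusted p under 0.05), and their median was −0.44. The risers were Hspb11, an intraflagellar transport protein in spite of its name, at 1.66 (adjusted p = 0.000821) and Hspb6 at 0.82 (adjusted p = 0.00466). Cryaa and Cryab, the alpha crystallins, were at −0.52 (adjusted p = 0.0617) and −0.67 (adjusted p = 0.0776).

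Among 7 red cell clients and traffic genes 2 were higher and 0 lower (limma; 1 lower at an unadjusted p under 0.05), with a median of −0.09. Leaving out any array other than Foxo3 siRNA replicate 1 gave 1 higher. Gata1 itself was at −0.09 (adjusted p = 0.632), at 0.23 after median scaling and at 0.29 after spike-in scaling. These cells lack endogenous GATA-1 and carry a GATA-1 fusion, and which transcript the Gata1 probe reads was not tested. Xpo1, the exportin known to carry HSP70 out of erythroblast nuclei, rose by 1.30 (adjusted p = 0.00160). Protein levels were not measured here.

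**Figure D5:**
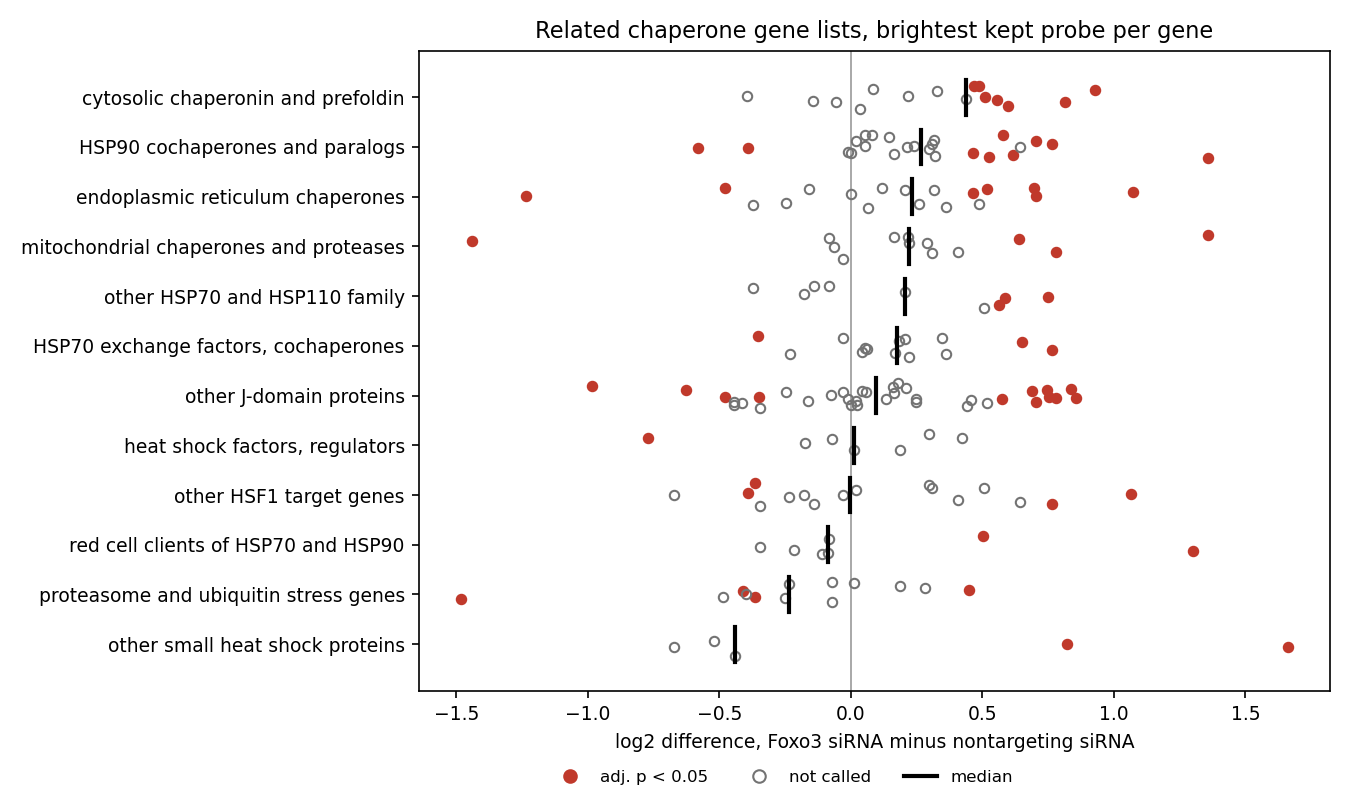
Log2 difference, Foxo3 siRNA minus nontargeting siRNA (x axis), of each tested gene in the 12 related lists, ordered from the highest to the lowest list median (black bars, 0.44 to −0.44). Red points passed an adjusted p under 0.05 and open points did not; a gene can stand in more than 1 list.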

How the data were processed

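Total RNA of 3 Foxo3 siRNA and 3 nontargeting siRNA samples was measured on 1-colour Agilent arrays. Per the file headers, the deposited intensity values came from Agilent Feature Extraction 10.7.3.1 with background subtraction, and a surrogate value stands in for signals not above background. The authors' deposited table holds the same signals and, per spot, a log2 fold change, a p-value and an adjusted p-value; per the submitters' processing notes limma was used, with a normalization not given in the sources used here.

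From the 62976 spots, 3671 control spots were left out and outlier spots set to missing. The log2 signal minus each array's 75th percentile was fitted per probe with limma 3.58.1 in R 4.3.3 (lmFit, eBayes, two-sided, no covariates) for the 26970 probes that were well above background throughout at least 1 group. Benjamini-Hochberg adjustment ran over all of these, and calls are at an adjusted p under 0.05. Probes below background got no fold. The number of arrays, 3 per group, limits the precision.

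All member probes were named, and from each related list up to 4 genes with the smallest adjusted p were taken, read from the brightest kept probe. Gata1, Dnajb5 and Dnajc5 were added after their values were seen. Items of the related and marker lists that are not reported here were left out of their counts and sums. Members and lists were chosen with earlier results of these data known. Replicate numbers were not used as pairs, since the labels do not say that they pair the samples. Same-numbered arrays' deviations correlated at 0.16, −0.31 and 0.11, which cannot settle it. The fit was tested on simulated data. Alternatives were quantile normalization, median scaling, normexp correction with an offset of 50, a stricter filter and none, leaving out each array, a replicate block, slide row as a block or only row 1, and, added after seeing the data, scaling to spike-in controls.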

Additional observations from a re-analysis of the deposited data

How the results depend on the processing

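As reported, 4 member probes were higher and 0 lower, 6900 of all kept probes were called, and related genes were 37 higher and 13 lower. No alternative called a member probe lower. Without a filter on dim probes 0 member probes were higher, 635 probes were called in all and related genes were 3 higher and 1 lower. With slide row as a block these were 1, 1895, 7 and 2, and on slide row 1 alone 0, 1117, 5 and 2. Scaling to spike-in controls gave 0, 1307, 5 and 0. Median scaling gave 3 related genes lower. Leaving out 1 array at a time gave 1 to 4 member probes higher, 3374 to 6149 probes called, 18 to 32 related genes higher and 4 to 10 lower. The 1 member probe still called without Foxo3 siRNA replicate 2, nontargeting replicate 1 or nontargeting replicate 2 was Hsp90ab1. At an unadjusted p under 0.05 (limma) 4 member probes were higher without a filter, on slide row 1 alone and after spike-in scaling. The replicate block gave 4 member probes higher and 6972 calls in all, so it changed no member call. Whether the numbers pair the samples is not known.

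Of all calls 47.6% were higher as reported, 77.2% after median scaling, 81.5% after spike-in scaling, 65.4% without a filter and 59.3% with slide row as a block. Values whose sign changed were all uncalled in the alternative. Hsf1 ranged from −0.041 to 0.11 when 1 array was left out (below 0 without Foxo3 siRNA replicate 3 or nontargeting replicate 1) and was at −0.017 in both slide row settings and −0.0042 in the authors' deposited table. The 3′ probe of Hspa8 was at 0.082 after median scaling, 0.0088 in both slide row settings and 0.15 after spike-in scaling. Hsbp1 was at 0.14 and Ahsp at 0.094 after median scaling, and they were at 0.20 and 0.16 after spike-in scaling, which put Bag1 at 0.026, Ubb at 0.015 and Jak2 at 0.037, and Hsf2 was at −0.21 in both slide row settings. The cause of these changes was not tested. The naming rule took 43 related genes, not all of which the text describes, and of the 34 called among them, 3 (Hspb11, Trap1 and Xpo1) were called in all 15 alternatives. Members dim on these arrays, Hspa1a and Hspb1, have no level here.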
